A study of Mus musculus with 8 samples.

Results

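The collagen chain genes were followed across the cells of the adult mouse tibia. The set holds 38 collagen genes of the 31053 genes of the mouse matrix, chosen by name and not by level. In all, 44 collagen chain genes were found there by symbol, and the other 6 had 36 UMIs together in the cells described here. A UMI, or unique molecular identifier, stands for 1 captured transcript. Of the 38 chains, 33 had at least 50 UMIs over these cells and 20 had at least 1000. The totals ran from 11 UMIs for Col4a6 to 250380 for Col2a1. The 5 chains under 50 UMIs were Col4a3, Col4a6, Col7a1, Col17a1 and Col23a1, and no order of cells is read from them.

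The cells came from tibiae of mice aged 8 weeks (P56), with no treatment, and were profiled by droplet single-cell RNA sequencing from the 3′ end of transcripts. Each mouse carried MMP14 F/+, which is 1 floxed Mmp14 allele, together with COL10A1cre and R26-tdT, and with Col1a1-2.3-GFP as a further transgene. The Cre is driven from Col10a1, a gene of hypertrophic chondrocytes (HCs), and turns on a tdTomato reporter in HCs and their descendants. A GFP transgene under a fragment of the Col1a1 promoter marks osteoblasts. Cells of 3 mice were pooled, and the 8 labelled samples form 1 group whose barcodes carry 1 shared suffix. The data are therefore 1 sample with no replicate error, no test was made, and every 95% interval covers counting error only. A group of cells with fewer transcripts per cell cannot be told apart here from one with less RNA captured.

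Each collagen is a trimer of chains wound into a triple helix. Fibril-forming collagens (types I, II, III, V, XI, XXIV and XXVII) build the fibrils of bone, cartilage and connective tissue. Type IX is bound to the surface of type II fibrils in cartilage, type IV forms the network of basement membranes, type VI forms beaded filaments around cells, and types VIII and X form short-chain networks. Type X is the classical product of hypertrophic chondrocytes, and type I is the main protein of bone.

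Levels were summed over cells chosen by raw marker UMIs among the 4472 of 12564 barcodes with at least 1600 genes. Growth-plate cells (243) had at least 10 Col2a1 UMIs and at most 1 Prg4 UMI. Col10a1/Ihh cells (79) had at least 5 UMIs of these genes together. Prg4/Cilp cells (197), named for genes of the joint surface, had at least 2 UMIs of that pair and an Acan UMI. Bglap cells (54) had at least 20 UMIs of the osteocalcin gene. Cxcl12 stroma cells (23) had at least 20 Cxcl12 UMIs and 2 of Lepr and Adipoq together. Dcn/Col3a1 cells (164) had at least 3 UMIs of each gene, Cdh5 cells (89) and Ptprc cells (3286) at least 1 UMI, and Rgs5 cells (32) at least 3. Cdh5, Rgs5 and Ptprc are genes of endothelial, mural and blood cells. Col2a1, Col10a1 and Col3a1 set these groups, so their levels in their own groups are not findings.

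The groups overlap: 3490 cells passed 1 gate, 309 passed more than 1, and 673 passed none. Every Col10a1/Ihh cell was also in another group. Median depth ran from 7235 UMIs per cell in Cdh5 cells to 25760 in Bglap cells. The labels call the cells chondro-osteogenic, while most cells above the gene minimum held a Ptprc UMI. Of the listed markers, those highest in their own group were 4 of the 9 growth-plate markers present, 6 of 10 for Col10a1/Ihh, 4 of 10 for Prg4/Cilp, 7 of 11 for Bglap, 9 of 10 for Cxcl12 stroma, 4 of 11 for Dcn/Col3a1, 10 of 10 for Cdh5, 7 of 10 for Rgs5 and 9 of 10 for Ptprc cells. Among cells of 1 gate alone the counts were 7 for the growth plate, 5 for Prg4/Cilp, 9 for Bglap, 8 for Cxcl12 stroma, 8 for Dcn/Col3a1, 10 for Cdh5, 6 for Rgs5 and 10 for Ptprc. No listed marker present was at 0 in its own group.

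Collagen took the largest share of transcripts in Bglap cells, and the order of the next groups depended on the chains that set them. It made up 13.4% (13.34 to 13.45) of all UMIs in Bglap cells, 8.545% in growth-plate cells and 8.239% in Col10a1/Ihh cells. Dcn/Col3a1 cells had 4.869% and Prg4/Cilp cells 2.516%. Of the Dcn/Col3a1 collagen UMIs, 56.98% were in 12 cells that were also Bglap cells, and the share was 2.718% in the 71 cells outside the Bglap and Prg4/Cilp gates. In Prg4/Cilp cells of 1 gate alone it was 1.337%. The share was 0.6952% in Rgs5 cells, 0.6621% in Cxcl12 stroma cells and 0.242% in Cdh5 cells. Without Col2a1, Col10a1 and Col3a1, which set groups, the share was 10.96% in Bglap, 4.024% in growth-plate, 4.001% in Dcn/Col3a1, 2.704% in Col10a1/Ihh and 1.306% in Prg4/Cilp cells. Col10a1/Ihh cells thus fell below Dcn/Col3a1 cells, and growth-plate cells (4.008 to 4.041) and Dcn/Col3a1 cells (3.976 to 4.027) had overlapping intervals. Single cells varied widely: in Bglap cells the lowest share was 0.503%, the median 11.27% and the highest 25.13%.

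The 3149 Ptprc cells in no other group set the background. Their collagen share was 0.01255%, and 96.83% of the collagen UMIs of all Ptprc cells lay in the 137 that were also in another group. No chain reached 100 UMIs per 1000000 UMIs (CPM) in the 3149 cells. One cell among them held 53.12% of their Col1a1 UMIs. Of the 30 chains with at least 50 UMIs that set no group, 29 were at least 10-fold higher in their best group outside blood than in Ptprc cells, against 15.8% of all 12737 genes tested the same way. The exception was Col4a4, at 5.11-fold. Col14a1, Col24a1, Col25a1 and Col26a1 passed the minimum of 50 UMIs only through the group where they were highest, so nothing is read from the count for these.

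**Figure D1:**
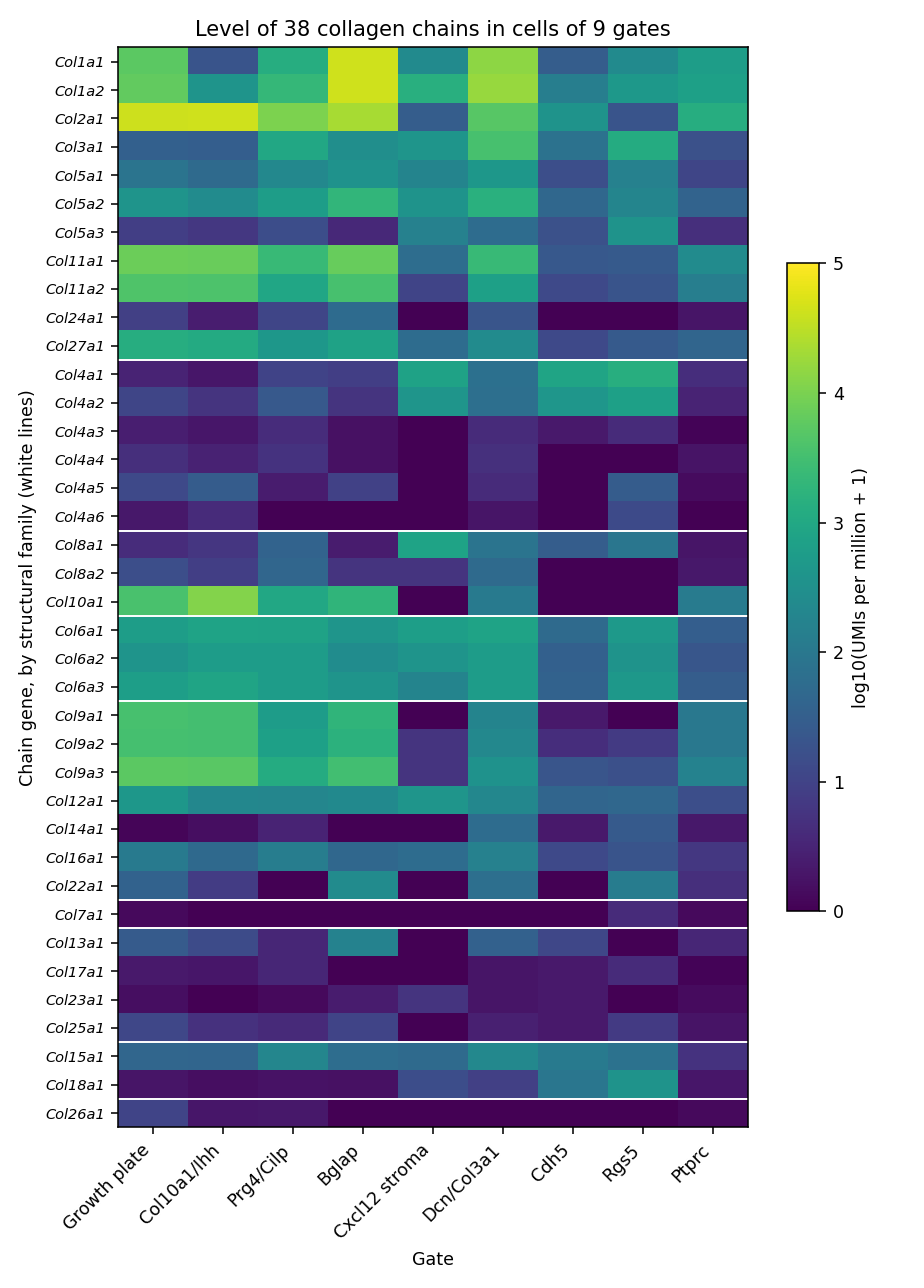
Heat map of the level of each of the 38 chains (rows, by family) in the 9 cell groups (columns), as log10 of CPM plus 1. Col1a1 and Col1a2 are brightest in Bglap and Dcn/Col3a1 cells, Col2a1 in growth-plate and Col10a1/Ihh cells, Col5a3 in Rgs5 cells, and Col4a1 and Col4a2 in Cxcl12 stroma, Cdh5 and Rgs5 cells.

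The make-up of the collagen also differed between groups. Fibril-forming chains were 92.3% of the collagen UMIs of Bglap cells and 92% of Dcn/Col3a1 cells, against 30% in Cdh5 and 39% in Rgs5 cells. Type IV chains were 51.6% in Cdh5 cells, 30.3% in Rgs5 cells and 17.5% in Cxcl12 stroma cells, and 0.0351% in growth-plate cells. In Cdh5 cells 94.9% of the Col2a1 UMIs were in 1 cell, and in the 42 without a Ptprc UMI fibril-forming chains were 14.2% and type IV chains 64.6%. Fibril-associated chains were 15.4% of the growth-plate collagen. Type VI chains were 19.3% in Rgs5 and 18.2% in Cxcl12 stroma cells, and short-chain collagens 14.6% in Col10a1/Ihh cells, where Col10a1 helped to set the group, and 11.9% in Cxcl12 stroma cells. A level of 100 CPM was reached by 19 chains in Bglap, Prg4/Cilp and Dcn/Col3a1 cells and by 5 in Cdh5 cells. It was reached by 10 in the 39 Bglap cells with at most 4 Acan UMIs and by 7 in the 42 Cdh5 cells without Ptprc.

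**Figure D2:**
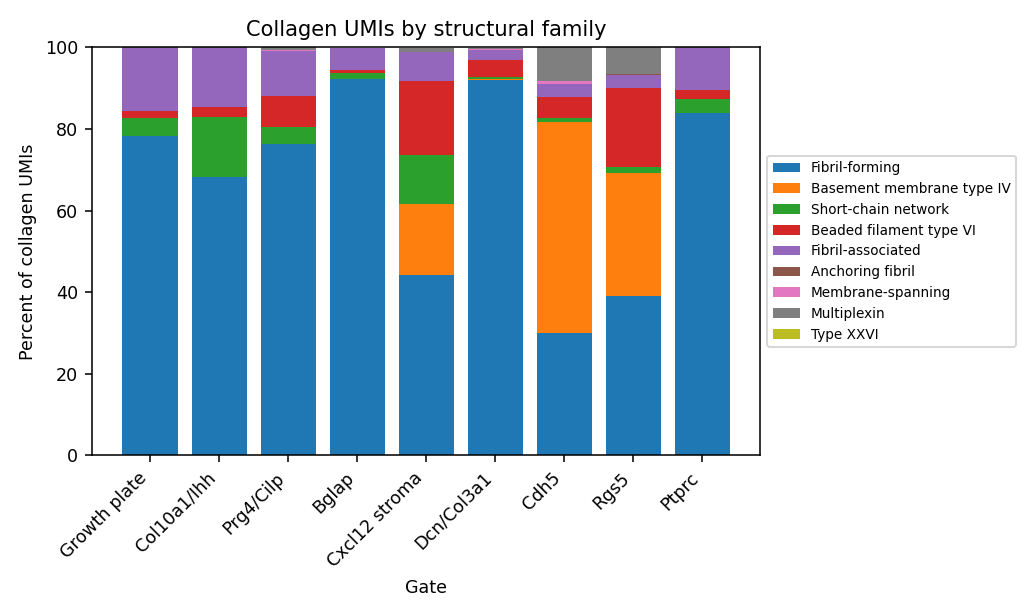
Stacked bars of each collagen family as a percent of all collagen UMIs, 1 bar per cell group. Fibril-forming chains fill 92.3% of the Bglap bar, and type IV chains 51.6% of the Cdh5 bar, which includes the cells with a Ptprc UMI.

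Type I collagen, the main fibril of bone and tendon, was highest in Bglap cells. Col1a1 (ENSMUSG00000001506, chr11:94936224-94953042 on mm10, forward strand) was at 43200 CPM in Bglap, 14400 in Dcn/Col3a1, 5484 in growth-plate, 1311 in Prg4/Cilp, 249 in Cxcl12 stroma, 247 in Rgs5, 28.9 in Cdh5 and 18.7 in Col10a1/Ihh cells. With cells of both groups counted as Bglap cells, Col1a1 was higher in Bglap than in Dcn/Col3a1 cells by 3.60 on the log2 scale (3.56 to 3.64). A Col1a1 UMI was found in 77.8% of Bglap cells, and in 73.2% after thinning each cell to 3000 UMIs. In the blood background the values were 7.24% and 2.425%, at a median depth of 9905 UMIs. The order of Cxcl12 stroma and Rgs5 cells is not resolved, since their intervals overlap (187 to 326 and 196 to 307 CPM).

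The Bglap gate held 2 kinds of cells by their collagen, split here at 4 Acan UMIs after the values were seen. In the 39 cells with at most 4 Acan UMIs, Col1a1 ran from 18 UMIs through a median of 1206 to 8337. In the other 15 cells it ran from 0 through 0 to 6. Col2a1, the cartilage fibril chain, was the reverse, with 0, 1 and 154 UMIs (lowest, median and highest) in the 39 cells and 75, 2334 and 4451 in the 15. Neither Ifitm5 nor Dmp1, genes of osteoblasts and osteocytes, had a UMI in the 15 cells, while 30 of the 39 cells held Ifitm5. The ranges of Col1a1 did not overlap. Bglap itself ran from 20 to 7862 UMIs in the 39 cells and from 24 through a median of 41 to 173 in the 15. In the blood background the median was 0 and the highest value 4. Whether the Bglap UMIs of the 15 cells were their own or free RNA was not tested. With these 15 cells left out, the Col1a1 level of 43200 CPM became 67780 and the collagen share of 13.4% became 15.06%.

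**Figure D3:**
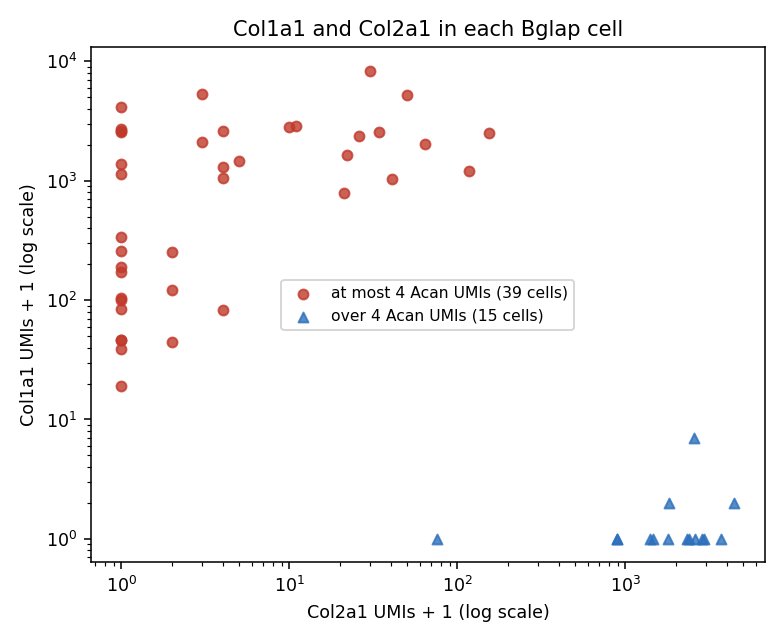
Col1a1 against Col2a1 UMIs for each of the 54 Bglap cells, both axes on a log scale of UMIs plus 1, coloured by Acan UMIs (39 cells with at most 4, 15 with more). The 15 cells lie at 0 to 6 Col1a1 UMIs, below the 39 cells at 18 to 8337.

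These overlaps set much of the type I level of other groups. In growth-plate cells 98.57% of the Col1a1 UMIs were in the 25 that were also Bglap cells, 11 of them with at most 4 Acan UMIs. Without the 25 cells, Col1a1 was at 93.8 and Col1a2 at 553 CPM. Of the 3655 Col1a1 UMIs of Prg4/Cilp cells, 3583 were in the 81 that were also Dcn/Col3a1 cells. In Prg4/Cilp cells of 1 gate alone Col1a1 was at 70.9 CPM. In the 39 Bglap cells Col1a2 was at 69460 CPM. Against the 71 Dcn/Col3a1 cells outside the Bglap and Prg4/Cilp gates, Col1a1 was 4.00 higher on the log2 scale (3.95 to 4.05).

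The balance of the type I chains changed between groups. Bone type I collagen is built of more α1 than α2 chains, and 1 UMI counts 1 molecule whatever its length. The Col1a1 UMIs per Col1a2 UMI were 0.976 in the 39 Bglap cells, 0.767 in the 71 Dcn/Col3a1 cells and 0.526 in Rgs5 cells. The ratio was 0.175 (0.129 to 0.236) in Cxcl12 stroma cells, from 53 and 302 UMIs. It was 0.17 in growth-plate cells without Bglap cells, from 445 and 2622 UMIs, and 0.0493 in Col10a1/Ihh cells, from 37 and 750. In growth-plate cells of 1 gate alone 67.95% of the Col1a1 UMIs were in 1 cell, and in Col10a1/Ihh cells 32.43%. Capture differs between genes, so the change of the ratio between groups is read and not its value. In the blood background the ratio was 0.995, where 1 cell held 53.12% of the Col1a1 UMIs and 1 cell 63.24% of the Col1a2 UMIs, so it is not compared with the other groups.

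Col2a1 (chr15:97975602-98004695, reverse strand), which forms the homotrimer of cartilage fibrils, was at 41460 CPM in growth-plate and 43280 in Col10a1/Ihh cells, and it set the former group. Its level was 10120 CPM in Prg4/Cilp cells, where single cells ran from 0 to 84600 CPM with a median of 1479. In the 39 Bglap cells it was 630 CPM, with 11 cells at 10 UMIs or more and 26.01% of the UMIs in 1 cell. There, 118 Col2a1 UMIs (50.5 to 366) were found per UMI of the type IX chains, against 3.28 in growth-plate cells without Bglap cells and 2.47 in the blood background. A Col2a1 UMI was found in 23.4% of the blood background cells.

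Type XI collagen, which nucleates and limits type II fibrils, stayed high where type IX did not. Col11a1 (chr3:114030540-114220718) was at 7191 CPM in growth-plate cells without Bglap cells and 5222 in the 39 Bglap cells, a log2 difference of -0.46 (-0.51 to -0.42). Its partner Col11a2 was at 4162 and 2395 CPM. Col9a1 (chr1:24177610-24252684), an α chain of type IX, was at 3692 CPM in the former and had 3 UMIs in the latter, a log2 difference of -10.17 (-12.45 to -8.63). Col9a2 had 2 UMIs and Col9a3 none in the 39 cells, where 0 UMIs allow up to 3.19 CPM. Col11a1 UMIs were in 35 of the 39 cells, with a median of 65 and a highest value of 742. Col27a1, a fibril-forming chain of cartilage, went with type IX, at 1335 and 18.1 CPM.

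The start regions of 3 of these chains are shown as the regions of the genes compared here. Each is the 100 bases before the RefSeq start on GRCm38.p6, read 5′ to 3′ on the gene's strand, with matches on either strand to the TATA box letters TATAAA, to the CCAAT box letters CCAAT and to the GC box letters GGGCGG in capitals. No matches overlapped one another. Over 27025 genes with such a window, TATAAA was in 5.95%, CCAAT in 19.6% and GGGCGG in 25.2%. Of the 29 chains with a window, 2, 3 and 16 held them. A match is a description of these letters alone. Col9a2 and Col27a1, low in the 39 Bglap cells like Col9a1, also held GGGCGG.
Col9a1, chr1:24177510-24177609, forward strand: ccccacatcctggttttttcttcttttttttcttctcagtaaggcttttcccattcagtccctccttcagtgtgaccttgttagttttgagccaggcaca
Col11a1, chr3:114030440-114030539, forward strand: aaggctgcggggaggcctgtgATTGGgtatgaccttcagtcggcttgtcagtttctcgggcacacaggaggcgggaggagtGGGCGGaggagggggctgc
Col11a2, chr17:34039038-34039137, forward strand: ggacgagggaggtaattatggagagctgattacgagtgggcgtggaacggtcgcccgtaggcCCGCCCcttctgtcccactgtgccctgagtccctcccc

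Col9a2 was at 3409 and Col9a3 at 5599 CPM in growth-plate cells, and at 700 and 1185 CPM in Prg4/Cilp cells. All type IX and type XI chains and Col27a1 were lower in Prg4/Cilp than in growth-plate cells, Col9a1 by the widest margin of these 6. Col9a1 was at 3561 CPM in growth-plate cells and 582 in Prg4/Cilp cells, a log2 difference of 2.61 (2.54 to 2.69), with shared cells counted in the latter. Col9a2 differed by 2.28, Col9a3 by 2.23, Col11a2 by 2.24, Col27a1 by 1.53 and Col11a1 by 1.65. With the 12 shared cells left out, the Col9a1 difference was 4.28. In cells of 1 gate alone Col9a2 was at 3674 and 506 CPM, Col9a3 at 5910 and 679 and Col11a2 at 4143 and 698. Col27a1 was at 1425 and 315 CPM there and Col11a1 at 7190 and 1879. The Col11a1 UMIs per Col11a2 UMI were 1.73 in growth-plate cells without Bglap cells, 2.65 in Prg4/Cilp cells and 5.07 in the 81 of these that were also Dcn/Col3a1 cells.

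Among the remaining fibril-forming chains, Col5a2 was highest in Bglap cells and Col5a1 in Dcn/Col3a1 cells. Type V collagen sits inside type I fibrils and sets their width. Col5a1 was at 531 CPM in the 39 Bglap cells and 500 in the 71 Dcn/Col3a1 cells, a log2 difference of 0.09 whose interval (-0.11 to 0.29) includes 0. Col5a2 was at 2946 and 1190 CPM, a difference of 1.31 (1.20 to 1.42). The ratio of Col5a1 to Col5a2 was 0.18 in the 39 Bglap cells and 0.833 in Rgs5 cells. Col5a3 was highest in Rgs5 cells, at 367 CPM, and next in Cxcl12 stroma cells, at 160 CPM. Col24a1, a minor fibril chain of bone, was at 80.9 CPM in the 39 Bglap cells and 6.89 in the 71 Dcn/Col3a1 cells, where 5 UMIs were counted.

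Col3a1, a chain of soft connective tissue and vessel walls, was at 3462 CPM in Dcn/Col3a1 cells, which it set. Of the groups it did not set, Rgs5 cells had 1204 CPM and a UMI in 27 of 32 cells, Prg4/Cilp cells 1000 CPM and Cxcl12 stroma cells 404. In Prg4/Cilp cells 81 of 197 were Dcn/Col3a1 cells too, and in those of 1 gate alone Col3a1 was at 39.4 CPM, from 25 UMIs.

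Col10a1 (chr10:34389981-34397085, forward strand), the chain of hypertrophic cartilage and the source of the Cre promoter, appeared in 2 settings that hold 78 of the 79 Col10a1/Ihh cells. In the 43 that were also growth-plate cells it was at 14640 CPM, with a lowest value of 0, a median of 477 and a highest of 1628 UMIs. In the 35 that were also Prg4/Cilp cells the lowest value was 5, the median 56 and the highest 369 UMIs. The Col10a1 level set the group and is given as a description. Ihh, the Indian hedgehog gene, had a UMI in 40 of the 43 cells and in 1 of the 35. Pth1r, the parathyroid hormone receptor gene, was in all 43 and in 6 of the 35. The start region of Col10a1 held TATAAA.
Col10a1, chr10:34389881-34389980, forward strand: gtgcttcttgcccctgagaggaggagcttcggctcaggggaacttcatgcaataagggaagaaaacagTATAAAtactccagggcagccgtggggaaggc

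**Figure D4:**
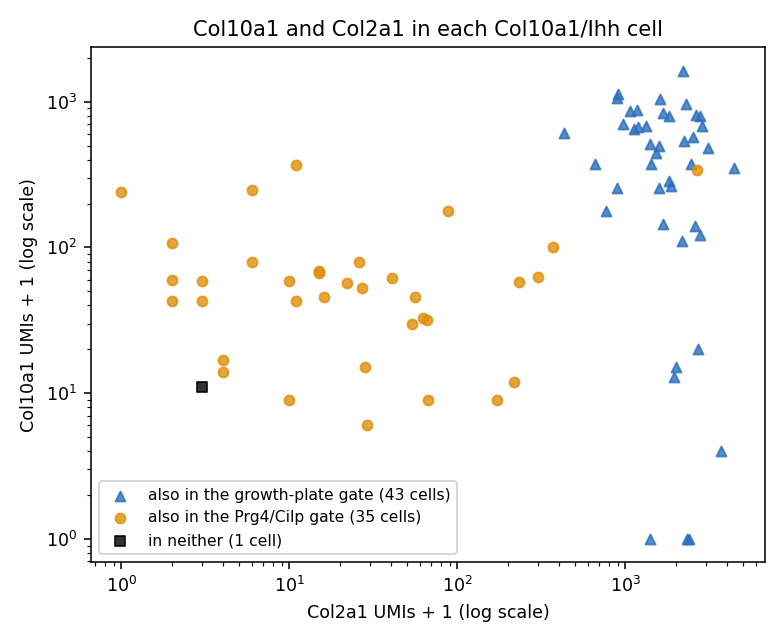
Col10a1 against Col2a1 UMIs for each of the 79 Col10a1/Ihh cells on log axes of UMIs plus 1, coloured by the other gate passed (43 growth-plate, 35 Prg4/Cilp, 1 neither). The 43 cells hold 428 to 4451 Col2a1 UMIs, and the 35 hold 0 to 2654 with a median of 21.

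The 34 Prg4/Cilp cells with Col10a1 but without Ihh differed from the 43 growth-plate cells in several chains. Their Col9a1 was 21.2 CPM, from 10 UMIs in 8 cells, against 4273 CPM in the 43 growth-plate cells, a log2 difference of -7.65 (-8.71 to -6.77). The 1 Prg4/Cilp cell left out for its Ihh UMI held 156 of the 166 Col9a1 UMIs of all 35, and with it the level was 327 CPM and the difference -3.71 (-3.94 to -3.48). Col9a2, at 469 and 4101 CPM, differed by -3.13, and Col9a3 by -3.65, or by -2.49 and -2.67 with that cell. The Col9a1 UMIs per Col9a2 UMI were 0.0452 (0.0214 to 0.0848) in the 34 cells, 0.447 (0.370 to 0.539) in all 35 and 1.04 in the 43, so the size of this change rests on 1 cell. Col11a1 differed by -2.76 and Col6a2 by -0.44. Col15a1, a chain of the multiplexin type found near basement membranes, went the other way, at 157 against 4.17 CPM, a difference of 5.23 (4.04 to 6.73) on 74 and 6 UMIs. Its level was 195 CPM in all Prg4/Cilp cells and 172 in those of 1 gate alone, so it is not particular to the 34 cells. More than 14 UMIs of WPRE, the element at the end of the tdTomato transcript, were in 24 of the 34 cells. The 34 cells had a median depth of 12850 UMIs and the 43 cells 32457.

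Within growth-plate cells, the 43 Col10a1/Ihh cells differed in several minor chains from the 185 without that gate and without Bglap. The basement membrane chain Col4a5 was at 35.5 against 3.80 CPM, a log2 difference of 3.22 (2.35 to 4.19) on 51 and 14 UMIs. Of its 88 UMIs over all groups 54 were in Col10a1/Ihh cells, so it reached 50 UMIs only through them and the difference is a description. Type VI chains were higher, by 0.85 for Col6a1 and 0.73 for Col6a3. Col12a1 differed by -1.05, Col16a1 by -1.62, Col8a2 by -2.91 and Col15a1 by -3.69. Col8a2 had 4 and 77 UMIs and Col15a1 6 and 199, so both reached 50 UMIs here only through the 185 cells and are a description. Col26a1, whose role is little known, was at 14.4 CPM in the 185 cells and had 2 UMIs in the 43, a difference of -3.37 (-6.45 to -1.45), which is a description too, since 53 of its 57 UMIs were in the 185 cells. Col9a1 differed by 0.24. Of the 43 cells 10 were Bglap cells too. Without them the difference was 3.27 for Col4a5, 0.78 for Col6a1, -1.57 for Col12a1, -1.77 for Col16a1, -2.47 for Col8a2, -4.26 for Col15a1, -2.93 for Col26a1 and 0.14 for Col9a1.

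Type VIII collagen is a short-chain network collagen of vessel walls and stroma. Col8a1 (chr16:57624258-57754737, reverse strand) was at 781 CPM (666 to 909) in Cxcl12 stroma cells, from 166 UMIs in 17 of 23 cells, of which 18.67% were in 1 cell. It was at 92.6 CPM in Rgs5, 82.6 in Dcn/Col3a1, 38.8 in Prg4/Cilp and 28.9 in Cdh5 cells, and 0.938 in Ptprc cells. Against Rgs5 cells without the shared cells it was 3.03 higher on the log2 scale (2.45 to 3.66). After thinning, 62.3% of stroma cells and 0.211% of Ptprc cells kept a UMI, at median depths of 7733 and 10049 UMIs. Col8a2 was at 4.70 CPM in stroma cells, so the pair did not move together, and it was highest in Dcn/Col3a1 cells at 52.5 CPM. The start region of Col8a1, shown as the chain with the clearest stroma level, held GGGCGG matches on the opposite strand.
Col8a1, chr16:57754738-57754837, reverse strand: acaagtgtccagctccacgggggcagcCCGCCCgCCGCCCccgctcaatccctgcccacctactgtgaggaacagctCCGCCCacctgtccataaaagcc

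Type IV collagen was highest in Rgs5, Cdh5 and Cxcl12 stroma cells. Col4a1 (chr8:11198423-11312826, reverse strand) was at 1368 CPM in Rgs5, 822 in Cdh5 and 752 in Cxcl12 stroma cells, and between 1.01 and 70.6 CPM in the other groups. Col4a2 was at 695, 426 and 409 CPM in the same order. Of the 23 stroma cells 4 were also Cdh5 cells and 2 Rgs5 cells, and Col4a1 was at 515 CPM in stroma cells of 1 gate alone. The summed level of the endothelial markers was 1227 CPM in stroma, 3697 in Cdh5 and 756 in Rgs5 cells, and its part in the stroma level was not tested. Of Cdh5 cells, 47 of 89 also held a Ptprc UMI, and Col4a1 was at 111 CPM in these and 1736 in the other 42, a log2 difference of 3.97 (3.56 to 4.39). The endothelial markers summed to 1105 and 7029 CPM in these cells, and that of the blood markers 48990 and 1180 CPM. Against Rgs5 cells Col4a1 was 0.85 lower on the log2 scale in all Cdh5 cells (-1.02 to -0.67), and 0.30 higher (0.12 to 0.49) in those without Ptprc. The order of Cdh5 and Rgs5 cells turned when the Ptprc cells were left out. Of the 47 cells 5 were marked as doublets, and of the 42 cells 1.

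Col4a1 and Col4a2 lie head to head on chromosome 8, and their starts are so close that the annotated genes overlap by 22 bases. The shared bases on the forward strand of GRCm38.p6 are shown because the pair had close ratios in the 3 groups where it was highest.
Col4a1 and Col4a2, chr8:11312805-11312826, forward strand: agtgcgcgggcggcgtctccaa
The Col4a1 UMIs per Col4a2 UMI were 1.97 in Rgs5 cells, 1.92 in Cdh5 cells without Ptprc and 1.84 in Cxcl12 stroma cells. In growth-plate cells without Bglap cells the ratio was 0.214, from 12 and 56 UMIs, and in Prg4/Cilp cells 0.388, from 26 and 67. Col4a3 and Col4a4, 71 bases apart, and Col4a5 and Col4a6, 1308 bases apart, are also head to head. Col4a4 reached at most 4.31 CPM in any group.

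**Figure D5:**
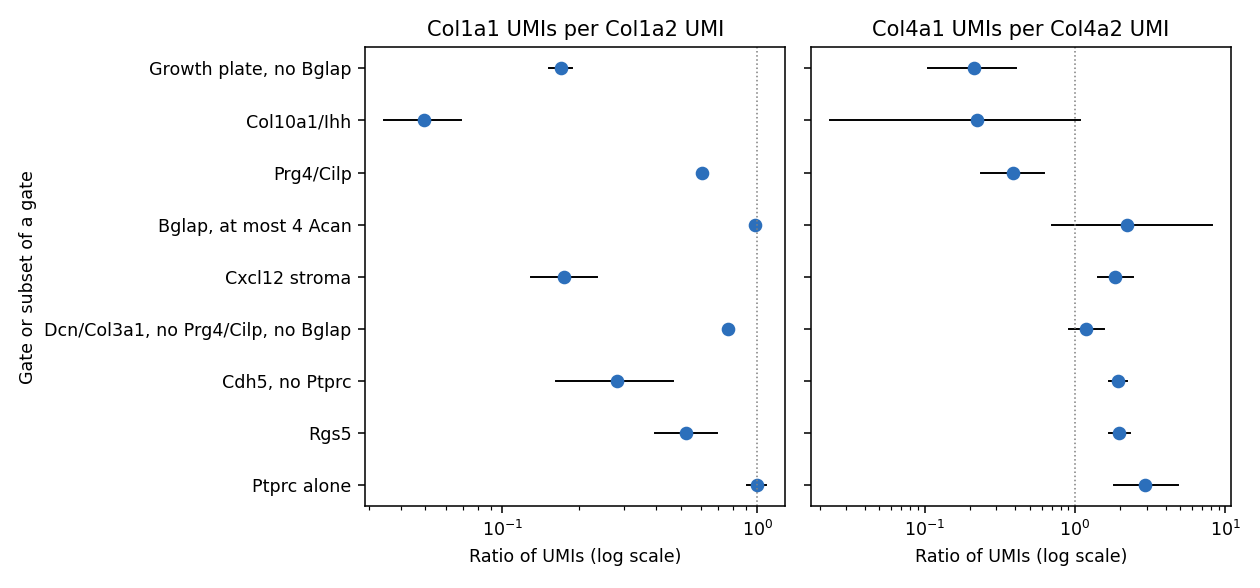
UMIs of Col1a1 per Col1a2 UMI and of Col4a1 per Col4a2 UMI in 9 groups of cells, on a log axis, with bars for the 95% counting interval. The Col1a1 ratio is 0.976 in Bglap cells with at most 4 Acan UMIs and 0.175 in Cxcl12 stroma cells, and the Col4a1 ratio is 1.84 to 1.97 in stroma, Cdh5 cells without Ptprc and Rgs5 cells.

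Type VI collagen was spread over the stromal and cartilage groups and was low in the 39 Bglap cells. Col6a1 was between 509 and 812 CPM in growth-plate, Col10a1/Ihh, Prg4/Cilp, Cxcl12 stroma, Dcn/Col3a1 and Rgs5 cells, and 53.3 in Cdh5 cells. In the 39 Bglap cells it was 74.5 CPM, lower by 3.44 on the log2 scale (-3.82 to -3.08) than in the 71 Dcn/Col3a1 cells. Col6a2 was lower by 3.30, at 59.6 against 588 CPM, and Col6a3 by 3.80, at 43.7 against 609 CPM. Of all groups, Col6a2 was highest in Dcn/Col3a1 cells, at 590 CPM, next to Prg4/Cilp cells at 576, with overlapping intervals (559 to 622 and 548 to 605). Col6a3 was highest in Col10a1/Ihh cells, at 820 CPM (781 to 861), and next in growth-plate cells, at 636. The Col6a1 UMIs per Col6a2 UMI lay between 1.31 and 1.64 in every group chosen by its gate. Per Col6a3 UMI the value was 3.55 in Cxcl12 stroma cells and 0.934 to 1.44 in the others, where Col6a3 had 38 UMIs in the stroma.

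The other fibril-associated chains each had their own pattern. Col12a1, which links fibrils to the surrounding matrix, was at 435 CPM in growth-plate and 404 in Cxcl12 stroma cells, a difference of 0.11 whose interval (-0.20 to 0.43) includes 0. In stroma cells 37.21% of these UMIs were in 1 cell, and in cells of 1 gate alone Col12a1 was at 549 and 269 CPM. Col14a1 was at 57.4 CPM in Dcn/Col3a1 cells and 171 in the 71 outside the Bglap and Prg4/Cilp gates. Col16a1 ranged from 157 CPM in Dcn/Col3a1 cells to 5.34 in Ptprc cells. Col22a1, a chain known from tissue junctions, was at 410 CPM in the 39 Bglap cells and 1.87 in the other 15. In Rgs5 cells it was at 127 CPM, from 41 UMIs in 5 of 32 cells.

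Of the membrane-spanning chains, Col13a1 was at 161 CPM in Bglap cells, with a UMI in 38 of 54 cells, and at 34.4 in Dcn/Col3a1 cells. In Dcn/Col3a1 cells of 1 gate alone Col13a1 was at 10.5 CPM, from 5 UMIs. In the 39 Bglap cells it was at 229 CPM. Col25a1 reached at most 10.4 CPM in the groups with their shared cells, in growth-plate cells. In cells of 1 gate alone it was highest in Bglap cells, at 24.8 CPM from 7 UMIs. Of the multiplexins, whose ends can be released as fragments, Col18a1 was at 370 CPM in Rgs5 and 92.6 in Cdh5 cells, with a UMI in 21 of 32 and 23 of 89 cells. Without Ptprc cells the Cdh5 level was 180 CPM. Col15a1 was at 241 CPM in Cdh5 cells without Ptprc and 77.2 in Rgs5 cells, and at 219 in Dcn/Col3a1 cells.

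The count of chains that lead in 1 group depends on the overlaps. Of the 30 chains with at least 50 UMIs that set no group, growth-plate cells held the highest level of 9, Dcn/Col3a1 cells of 7, Bglap cells of 6, Rgs5 cells of 5, Col10a1/Ihh, Prg4/Cilp and Cxcl12 stroma cells of 1 each, and Cdh5 and Ptprc cells of none. The 9 include Col25a1 and Col26a1, with 37 and 2 UMIs outside growth-plate cells. In cells of 1 gate alone, with chains that set groups included, the counts were 9 for Dcn/Col3a1, 8 for growth-plate and 7 for Bglap. They were 3 for Cdh5, 2 for Rgs5 and 1 each for Prg4/Cilp and Cxcl12 stroma cells. No share of all genes by leading group is set beside these counts, so they are a description. A lead of at least 4-fold over the next group was held by 3 of 30 chains, against 2.88% of 12737 genes. These were Col26a1 in growth-plate (9.03-fold, 55 UMIs there), Col8a1 in Cxcl12 stroma (8.43-fold) and Col13a1 in Bglap cells (4.67-fold), with Col18a1 just below the limit. Only 2 of the 57 UMIs of Col26a1 lay outside growth-plate cells, so it reached the 50-UMI minimum through the group it led, and its lead is given as a description. In cells of 1 gate alone it was 10 of 28, against 9.24% of 12276 genes: Col1a1, Col1a2, Col24a1 and Col13a1 in Bglap, Col9a1, Col9a2, Col9a3 and Col27a1 in growth-plate, Col8a1 in stroma and Col14a1 in Dcn/Col3a1 cells. Of these, Col13a1, Col14a1 and Col24a1 had 33, 32 and 20 UMIs outside the group they led and passed the minimum only through it, so nothing is read from that count against the share of all genes.

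HC-derived cells were read as those with more than 14 WPRE UMIs, the limit of the study. Of the 39 Bglap cells with at most 4 Acan UMIs, 15 were HC-derived and 24 were not, with median depths of 23361 and 20210 UMIs. Their main collagens were close: Col1a1 was at 65070 and 69290 CPM, a log2 difference of -0.09 (-0.11 to -0.07), and Col1a2 differed by -0.05. Col11a1 differed by -0.01, Col22a1 by -0.07 and Col13a1 by 0.07. In all 54 Bglap cells the Col1a1 difference was 0.44, but it was -0.34 in cells of 1 gate alone and 2.00 at a limit of 4 WPRE UMIs, so no direction is read. Of these, 13 of the 37 other cells and 2 of the 17 HC-derived cells had more than 4 Acan UMIs.

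Col6a1, Col6a2, Col15a1 and Col12a1 had few UMIs in the HC-derived Bglap cells and reached 50 UMIs only through the other cells, so their values are a description. In the 15 and the 24 cells Col6a1 had 6 and 64 UMIs, Col6a2 6 and 50, Col15a1 12 and 74, and Col12a1 15 and 56, with 73.21% of the last in 1 cell. Of the 24, 11 passed the Dcn/Col3a1 gate, which Col3a1 set, and of the 15 none. Col3a1 had no UMI in the 15 cells and 431 in the 24, but only 3 in the 13 of these outside that gate (11.96 CPM, where 0 UMIs in the 15 cells allow 8.95), so no fold is given. Without the 11, Col6a1 differed by -1.53, Col6a2 by -2.29 and Col15a1 by -1.83, while Col12a1 differed by 1.90 on 15 and 3 UMIs, Col11a1 was 0.75 higher (0.63 to 0.88), Col5a2 0.45 higher (0.30 to 0.60), Col1a2 0.30 higher (0.27 to 0.33) and Col1a1 0.04 higher.

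In the 23 Cxcl12 stroma cells, 10 were HC-derived. Col3a1 was at 60.6 CPM there and 704 in the other 13, a log2 difference of -3.54 (-5.03 to -2.35) on 6 and 80 UMIs, with 46.25% of the latter in 1 cell. Of the 13, 2 were in the Dcn/Col3a1 gate, which Col3a1 set, and without them the difference was -3.64 (-5.13 to -2.45) on 6 and 73 UMIs. Stroma cells of 1 gate alone held 34 of the 86 Col3a1 UMIs, so the difference is a description. Col5a3 went the other way, at 263 and 70.4 CPM (1.90, 0.72 to 3.25), with a UMI in 9 of 10 and 4 of 13 cells. It had 26 and 8 UMIs, with 62.5% of the 8 in 1 cell. Col1a1 differed by -1.28 on 14 and 39 UMIs and Col4a2 by -1.03 on 26 and 61. With so few UMIs the values of Col5a3, Col1a1 and Col4a2 are a description. The intervals for Col8a1 (0.20, -0.26 to 0.66) and Col6a1 (0.14, -0.37 to 0.64) include 0. Without the 2 cells Col8a1 differed by 0.76 (0.23 to 1.30). Depth differed as well, with medians of 9086 and 6613 UMIs.

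The 43 Col10a1/Ihh growth-plate cells carried cartilage chains themselves, so the WPRE limit is read there as the reporter being on and not as descent. More than 14 WPRE UMIs were in 21 of them and not in 22, at median depths of 34106 and 31348 UMIs. Their Col10a1 was 20630 and 8655 CPM, a log2 difference of 1.25, and the Cre is driven from that gene. Col12a1 was at 91.8 and 434 CPM, a difference of -2.24 (-2.65 to -1.85), and Col27a1 differed by -1.34. Type IX and type XI chains differed by -0.37 to -0.55.

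The GFP transgene was compared with the type I chain whose promoter drives it. Of the 39 Bglap cells, 27 held GFP, with 7018 UMIs in all, and none of the 15 with more than 4 Acan UMIs did. Over the 54 cells the Spearman correlation of Col1a1 with GFP was 0.659, and over the 39 it was 0.431, with the depth of each cell shared by both counts. Of the 23 cells with at least 1000 Col1a1 UMIs, 6 had no GFP UMI, and GFP ran from 0 through a median of 157 to 1622 UMIs. The 71 Dcn/Col3a1 cells had Col1a1 at 4237 CPM and no GFP UMI. No GFP was found in Cxcl12 stroma, Cdh5 or Rgs5 cells either. In the blood background 15 of 3149 cells held GFP.

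The genes that fold, modify, process and sense collagen were followed as 3 lists. No share of all genes by leading group is set beside their counts of highest groups, which are a description. Of 17 chaperones and modifying enzymes, all with at least 50 UMIs, 8 were highest in growth-plate, 3 in Bglap, 2 each in Col10a1/Ihh and Prg4/Cilp, and 1 each in Dcn/Col3a1 and Cdh5 cells. None had a 4-fold lead, against the 2.88% of all genes, and 11 were at least 10-fold over Ptprc cells, against 15.8%. Serpinh1, the collagen chaperone HSP47, was at 2326 CPM in Bglap and 2100 in growth-plate cells. Ppib, a prolyl isomerase, was at 1160 CPM and Plod2, a lysyl hydroxylase, at 967 CPM in growth-plate cells.

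Of 13 procollagen processing and crosslinking genes with enough UMIs, of 14 listed, 4 each were highest in Bglap and Col10a1/Ihh cells, 2 in Cxcl12 stroma cells and 1 each in growth-plate, Dcn/Col3a1 and Rgs5 cells. None had a 4-fold lead, against 2.88% of all genes, and 12 were at least 10-fold over Ptprc cells, against 15.8%. Sparc, a collagen-binding protein of bone, was at 37490 CPM in Bglap cells and at least 25090 in all cartilage groups. Pcolce2, an enhancer of procollagen C-proteinase, was at 2459 CPM in Col10a1/Ihh and 4.26 in the 39 Bglap cells. Its relative Pcolce was at 26.3 and 574 CPM in these cells. Lox, the lysyl oxidase gene, was at 514 CPM in Bglap cells.

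Of 10 collagen receptor genes with enough UMIs, of 11 listed, 3 each were highest in Cxcl12 stroma and Cdh5 cells and 1 each in Prg4/Cilp, Bglap, Dcn/Col3a1 and Rgs5 cells. None had a 4-fold lead, against 2.88% of all genes, and 7 were at least 10-fold over Ptprc cells, against 15.8%. One of the Cdh5 leads was Lair1, an inhibitory receptor of blood cells, at 109 CPM, where 47 of the 89 Cdh5 cells held Ptprc. In cells of 1 gate alone Lair1 was highest in Ptprc cells. The integrin subunit Itgb1 was at 753 CPM in Rgs5 cells. Its partner Itga1 was at 484 CPM in Cxcl12 stroma cells and 14.3 in Bglap cells. The discoidin receptor Ddr2 was at 183 CPM in stroma cells and 173 in Rgs5 cells.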

How the data were processed

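Single cells of mouse tibiae were profiled on the 10x platform. The authors deposited raw UMI counts per gene and cell. The submitters' processing notes name Cell Ranger 3.1.0, Seurat 3 and the build mm10, to which exogenous sequences (GFP, tdTomato, WPRE) were added, with the annotation release not given in the sources used here. All 8 labelled samples of 1 group could not be told apart among 12564 barcodes (91463572 UMIs, 500 to 103543 per barcode), so they were treated as 1 pool and no p-value was computed.

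From these counts, UMIs were summed over the cells of each gate and given per 1000000 UMIs (CPM) with exact Poisson 95% intervals. Shares have Clopper-Pearson intervals, and ratios between groups exact conditional intervals, in which cells of both groups were counted in the smaller group. These intervals cover counting error only. A count of 0 allows up to 3 counts. Shares of cells were also computed for cells thinned to 3000 UMIs, which no gated cell fell under. The members and lists were chosen with earlier results of these data known. All 38 chains were accounted for, and those with at least 1000 UMIs or leading their family were given with their levels, as were up to 4 genes of each pathway list. The splits by Acan, Ptprc and passed gates were chosen after seeing the data. Scrublet, at an expected rate of 6%, marked 3.54% of barcodes as doublets, which were kept. Coordinates are from GENCODE M21 and sequences from RefSeq (GRCm38.p6, the assembly of mm10). Motif searches used 100 bases before the first listed RefSeq start of 29 matched members. Python 3.11.15, numpy 2.4.6, scipy 1.17.1, pandas 2.3.3, matplotlib 3.10.9 and scanpy 1.11.5 were used. The scripts were tested on simulated data.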

Additional observations from a re-analysis of the deposited data

How the results depend on the processing

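With 1 pool, no replicate could be left out. No paired analysis was possible because the labelled samples cannot be told apart among the barcodes. The collagen share of Bglap cells (13.4%) was 15% in cells of 1 gate, 13.3% without Ptprc cells, 13.5% and 13.8% at 1000 and 2500 genes, 11.3% with cells weighted equally, 14.6% with doubled thresholds and 15.1% with at most 4 Acan UMIs. The chains with a 4-fold lead (3 of 30, against 2.88% of 12737 genes) became 10 of 28 in cells of 1 gate, against 9.24% of 12276 genes. The count was 6 with equal weights, 6 with doubled thresholds and 10 at a 2-fold lead. No share of all genes is set beside these last 3 counts, so nothing is read from them. For Col1a1 in Bglap over Dcn/Col3a1 cells (log2 3.60) the values were, in the order of the first list, 3.68, 3.30, 3.71 at 2500 genes, 3.28, 3.55 and 4.28, and 3.30 with shared cells left out. For Col9a1 in growth-plate over Prg4/Cilp cells (2.61) they were 3.89, 2.74, 2.39 at 2500 genes, 3.39, 5.34, and 4.28 with shared cells left out. Col4a1 in Cdh5 over Rgs5 cells (-0.85) turned to 0.22 in cells of 1 gate and 0.20 without Ptprc cells, and was -0.30 at 2500 genes, -1.21 with equal weights and -0.25 with doubled thresholds. Col1a1 in HC-derived over other Bglap cells (0.44) turned to -0.34 in cells of 1 gate and -0.091 with at most 4 Acan UMIs, was 0.039 with the Dcn/Col3a1 cells left out as well, 0.41 at 1000 and 0.41 at 2500 genes (0.41 with a mitochondrial limit of 20%), 0.62 with equal weights, 0.34 with doubled thresholds and 2.00 at more than 4 WPRE UMIs. The Spearman correlation with GFP (0.659) was 0.528 with doubled thresholds and 0.431 with at most 4 Acan UMIs. The Col1a1 level of Bglap cells (43200 CPM) was 71300 in cells of 1 gate, 43800 and 44300 at 1000 and 2500 genes, 38700 with equal weights and 52300 with doubled thresholds. The Col1a1 to Col1a2 ratio of stroma cells (0.175) stayed within its interval under each of these settings. Of the levels of 33 chains in their leading group, 22 of the 30 with a value left their interval in cells of 1 gate, 6 by more than 1.5-fold. Of the 33, 22 did so with equal weights, 18 without Ptprc cells, 15 with doubled thresholds, 11 at 2500 genes, 2 at 1000 genes, 1 without doublets and 0 with the mitochondrial limit. No Col10a1/Ihh cell passed 1 gate alone, so that group has no value there. The splits by Acan and by the Dcn/Col3a1 gate were chosen after seeing the data. The cause of each other change was not tested. The groups of 23 to 54 cells limit the levels of minor chains by their counts.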

Other observations

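The 673 barcodes with at least 1600 genes in no group held 4275 collagen UMIs, 0.0516% of their UMIs, with single cells from 0 to 11.54%. The 8092 barcodes under 1600 genes held 16153, or 0.04775%, with single barcodes up to 30.28%. Their median depths were 10586 and 2994 UMIs. Of the collagen chains outside the set, Col20a1 had 22 UMIs in gated cells, Col19a1 and Col28a1 4 each, Col6a6 3, Col6a4 2 and Col6a5 1.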
